A study of Mus musculus with 4 samples.

Results

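Nucleoporins, nuclear transport receptors and the regulators of the GTPase Ran were followed in RNA sequencing of LSK cells. LSK cells are sorted from bone marrow as lacking lineage markers while carrying Kit and Sca-1, and the gate includes stem cells as well as multipotent progenitors. Members were taken by gene symbol: symbols that begin with Nup, Kpna, Kpnb, Xpo, Ipo or Tnpo and a number, together with Xpot, Ran, Rangap1, Ranbp1, Ranbp2, Rcc1, Cse1l, Tpr, Seh1l and Rae1. The rule used no measured value and found 54 of the 24421 genes in the table: 25 pore proteins, 24 transport receptors, 4 genes of the Ran cycle and 1 readthrough transcript. The cells came from Zfp521-/- mice (KO, 2 libraries) and control littermates labelled as wild type (WT, 2 libraries). Zfp521 encodes a zinc finger transcription cofactor. Each library was made from an independent RNA sample of pooled cells. The sources used here do not give strain, age, sex or how many animals went into a pool. The p-values therefore measure how far these RNA samples varied, some of which may be technical.

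Nuclear pores are large protein channels through the nuclear envelope, built from rings of scaffold nucleoporins around a channel lined with flexible phenylalanine-glycine (FG) repeats. Importins and exportins carry cargo through this FG mesh, and importin alpha acts as an adaptor between classical nuclear localisation signals and importin beta. Direction comes from Ran: Rcc1 loads it with GTP on chromatin, and Rangap1, helped by Ranbp1 and Ranbp2, triggers GTP hydrolysis at the cytoplasmic side. Several members have a further role in mitosis, where Ran-GTP and importins guide the spindle and nucleoporins reassemble the envelope.

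Library totals ran from 17787425 to 22000036 counts in KO and from 25813391 to 29863594 counts in WT, and levels are given as CPM, counts scaled to library depth with TMM factors. A floor of 3 counts, which covers counting error only, corresponded to 0.108 to 0.152 CPM. Zfp521 itself had 308 and 215 counts in KO and 1561 and 1429 counts in WT (log2 fold change -2.19, SE 0.23, edgeR quasi-likelihood test, adjusted p = 0.000491). Xist had 227405 and 230977 counts in KO and 160613 and 606 counts in WT. The 4 Y-linked genes examined had 9 and 12 counts in KO and 14 and 5606 counts in WT. WT replicate 2 thus carried a male pattern and the other libraries a female one. Sex pattern was uneven between the genotypes, and its part in the differences was not tested. The fit without WT replicate 2 compared libraries of female pattern only. The ribosomal RNA precursor Rn45s took 14.6% and 9.37% of counts in KO and 15.3% and 15.7% in WT. The LSK marker Kit stood at 697 and 702 CPM in KO and 617 and 708 CPM in WT, and Cd3e, a T cell gene, stayed below 1 CPM in every library.

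The promoters of 4 members are shown because they stand for the patterns described below: Kpna2 had the largest decrease, Ran and Nup50 were lower, and Tpr, the most abundant pore transcript per length, was level. Each covers 250 bases before and 50 bases after the RefSeq start on build GRCm38.p6, 5′ to 3′ on the gene's strand, with capitals marking matches to the motifs named after them. The windows are chr11:106999476-106999775 on the minus strand for Kpna2, and, on the plus strand, chr5:129019906-129020205 for Ran, chr15:84923178-84923477 for Nup50 and chr1:150392588-150392887 for Tpr.
Kpna2: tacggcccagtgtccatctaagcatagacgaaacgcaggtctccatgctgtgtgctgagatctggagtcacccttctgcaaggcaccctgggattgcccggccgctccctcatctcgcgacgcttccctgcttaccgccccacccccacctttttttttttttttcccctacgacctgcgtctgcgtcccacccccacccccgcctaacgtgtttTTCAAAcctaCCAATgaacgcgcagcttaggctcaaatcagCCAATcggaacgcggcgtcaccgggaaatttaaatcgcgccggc
Ran: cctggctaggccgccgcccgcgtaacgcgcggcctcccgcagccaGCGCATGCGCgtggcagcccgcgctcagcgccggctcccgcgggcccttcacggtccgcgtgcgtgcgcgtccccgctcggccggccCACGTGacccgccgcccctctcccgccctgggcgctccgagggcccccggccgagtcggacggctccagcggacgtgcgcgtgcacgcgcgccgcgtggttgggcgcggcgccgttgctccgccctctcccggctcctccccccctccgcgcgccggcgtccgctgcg
Nup50: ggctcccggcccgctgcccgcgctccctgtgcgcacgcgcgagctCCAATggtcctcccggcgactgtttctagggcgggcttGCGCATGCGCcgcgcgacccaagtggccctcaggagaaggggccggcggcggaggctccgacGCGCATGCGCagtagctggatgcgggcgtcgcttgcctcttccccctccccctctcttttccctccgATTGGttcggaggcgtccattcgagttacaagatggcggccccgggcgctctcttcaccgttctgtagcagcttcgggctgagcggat
Tpr: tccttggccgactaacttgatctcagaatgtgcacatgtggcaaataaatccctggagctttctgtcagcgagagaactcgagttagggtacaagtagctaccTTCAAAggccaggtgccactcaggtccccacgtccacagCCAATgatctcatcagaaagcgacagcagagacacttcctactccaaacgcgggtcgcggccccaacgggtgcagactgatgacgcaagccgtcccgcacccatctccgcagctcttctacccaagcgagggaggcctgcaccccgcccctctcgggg

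Searched on both strands were the CHR element TTTGAA of cell cycle genes, the CCAAT box, the E-box CACGTG, the NRF1 core, which is GCGCA followed directly by TGCGC, and the E2F forms TTTCCCGC, TTTGGCGC, TTTCGCGC and TTTGCCGC. The Kpna2 window held a CHR element and 2 CCAAT boxes close to the start, the Ran window an NRF1 core and an E-box, and the Nup50 window 2 NRF1 cores and 2 CCAAT boxes. The Tpr window also held a CHR element and a CCAAT box, so these letters did not separate it from Kpna2. RefSeq promoters were found for 42 members, 49 windows in all, and hits of different motifs overlapped in 0 of them. Among the member windows 10.2% held an NRF1 core, 18.4% an E-box, 51.0% a CCAAT box, 24.5% a CHR element and 6.12% an E2F form. Among all 32851 windows of the same length, noncoding genes included, the shares were 0.971%, 7.15%, 37.4%, 17.9% and 2.26% in the same order. The NRF1 core was found in 3 of the 10 windows of lower members and in 2 of the 37 windows of members that did not pass the test. In the same 10 and 37 windows, the CHR element was found in 3 and 8, the E-box in 1 and 8, the CCAAT box in 6 and 17, and an E2F form in 2 and 1. The 10 windows came from 9 lower members, and the lower members Cse1l and Kpna3 had none. Windows of the same gene can overlap, as for Nup37 and Ipo9, and a shared hit then counts in each.

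Transport transcripts were compared between KO and WT to see which of them differ in Zfp521-/- cells. Of 52 members tested, 11 fell in KO and 0 rose (edgeR quasi-likelihood test, adjusted p under 0.05 over all 14140 genes tested). This is 21.2% of the members tested, against 3.01% of all genes called lower, 3.77% called higher and 6.78% called in either direction. The 11 are the Ran cycle genes Ran, Ranbp1 and Rangap1, the receptors Kpna2, Kpna3, Ipo5, Xpo1 and Cse1l, and the pore genes Nup50, Nup62 and Nup210. Both KO libraries lay below both WT libraries for 37 members and above them for 0, where 27.6% of all genes lay below and 28.8% above. The median log2 fold change of the members was -0.39, beside 0.02 for all genes tested. At an unadjusted p under 0.05, 24 members were lower and 0 higher, where 11.4% of all genes were lower and 24.5% differed in either direction. In bulk libraries, fewer cells of a type and less RNA per cell cannot be told apart. The number of calls depended on the WT libraries: Kpna2 alone passed without WT replicate 1, and Kpna2, Ran, Ipo5 and Nup50 passed without WT replicate 2, where 0.642% and 0.685% of all genes were called lower.

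**Figure D1:**
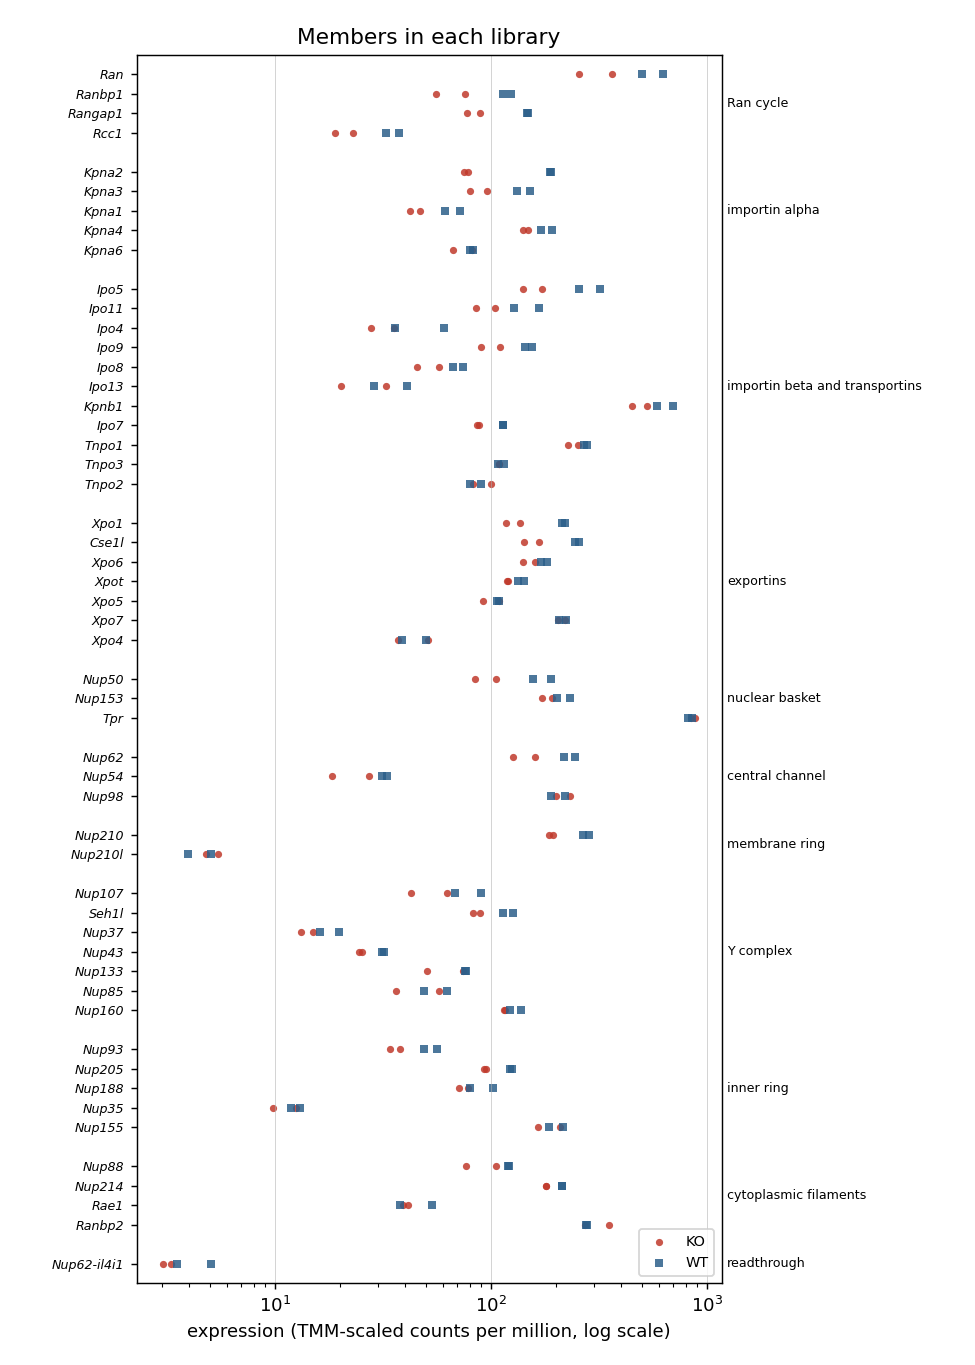
Expression of the 52 members tested in each library, in TMM-scaled CPM on a log axis, with KO libraries as circles and WT libraries as squares, grouped by role. Both KO libraries lie left of both WT libraries for all 4 Ran cycle genes, while those of Tpr, Nup98, Xpo7 and Tnpo3 overlap.

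Of the 4 Ran cycle genes 3 fell, where 3.01% of all genes were called lower. All 4 had both KO libraries below both WT libraries, as had 27.6% of all genes. Ran, the GTPase itself, was at 363 and 255 CPM in KO and 630 and 501 CPM in WT. Its log2 fold change was -0.87 (SE 0.18, edgeR adjusted p = 0.0193), a 1.83-fold lower level. Even the higher KO library lay well below the lower WT library, though each genotype spanned a wide range. Ran is on chromosome 5 of mm10, from 129020069 to 129024323 on the plus strand. Its near-identical copy Rasl2-9 had at most 2 counts in any library. Reads that fit both genes may not have been counted, so this low count does not show that the copy was silent.

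Ranbp1, which binds Ran-GTP and assists its hydrolysis, was at 75.7 and 55.6 CPM in KO and 124 and 114 CPM in WT (log2 fold change -0.86, SE 0.19, edgeR adjusted p = 0.0224). Rangap1, the GTPase activating protein, was at 89.1 and 77.8 CPM in KO and 148 and 149 CPM in WT (log2 fold change -0.83, SE 0.16, edgeR adjusted p = 0.0135). The genotypes did not overlap for either gene, and the WT libraries almost coincided for Rangap1. Rcc1, the nucleotide exchange factor on chromatin, was at 23.0 and 19.0 CPM in KO and 37.7 and 32.7 CPM in WT, without overlap, and missed the threshold (log2 fold change -0.74, SE 0.24, edgeR adjusted p = 0.0846). Rcc1 shares 135 exon bases with Snhg3 on the same strand, and Ranbp1 281 with Gm49776 on the same strand and 54 with Trmt2a on the other. Rangap1 shares 65 with Zc3h7b on the other strand. At these bases the counting may have been ambiguous.

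Ran was set against each of the other genes of the cycle. Per kilobase of transcript, Ran stood at 2.19 and 2.09 times Ranbp1 in KO and at 2.32 and 2.01 times in WT, and at 15.2 and 12.9 times Rcc1 in KO and 16.05 and 14.7 times in WT. It stood at 5.20 and 4.18 times Rangap1 in KO and 5.43 and 4.29 times in WT. The libraries of KO and WT overlapped in all 3 ratios. Summed over the 4 genes, the level was 551 and 407 CPM in KO and 939 and 797 CPM in WT, so the KO mean was 55.2% of the WT mean. KO replicate 2 was the lowest library for each of the 4 genes. The median log2 fold change of the Ran cycle was -0.84, and it was -0.65 without KO replicate 2 and -1.02 without KO replicate 1.

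Importin alpha genes differed widely among themselves. Kpna2, the importin alpha whose transcript peaks in dividing cells, showed the largest decrease of all members. It was at 78.3 and 75.1 CPM in KO and 189 and 190 CPM in WT, so replicates nearly coincided and the genotypes were far apart. Its log2 fold change was -1.30 (SE 0.15, edgeR adjusted p = 0.00093), a 2.47-fold lower level, with values from -1.34 to -1.22 under the alternatives tried and an adjusted p of at most 0.0128. Kpna2 lies on chromosome 11 of mm10, from 106988629 to 106999541 on the minus strand, and no annotated exon of another gene overlaps it.

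Kpna3, a member of another importin alpha subfamily, was at 95.9 and 80.2 CPM in KO and 151 and 132 CPM in WT (log2 fold change -0.69, SE 0.17, edgeR adjusted p = 0.0354). It missed the threshold with upper quartile factors (adjusted p = 0.0541) and when either WT library or KO replicate 2 was left out. Its closest paralog Kpna4 was at 149 and 142 CPM in KO and 192 and 170 CPM in WT, a smaller difference that did not pass (log2 fold change -0.32, SE 0.15, edgeR adjusted p = 0.223).

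The remaining subfamily of importin alpha adaptors holds Kpna1 and Kpna6. Kpna1 was at 42.5 and 47.3 CPM in KO and 72.5 and 61.4 CPM in WT, with no overlap, and did not pass (log2 fold change -0.58, SE 0.19, edgeR adjusted p = 0.0896). Kpna6 was at 81.8 and 67.1 CPM in KO and 79.9 and 83.3 CPM in WT, so the genotypes overlapped (log2 fold change -0.13, SE 0.18, edgeR adjusted p = 0.689). Kpna7, known from oocytes and early embryos, had 0 counts in all 4 libraries, which allows at most the floor given above.

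The make-up of the importin alpha set differed between the libraries of the 2 genotypes. Of its summed CPM per kilobase, Kpna2 held 30.6% and 31.7% in KO and 44.0% and 46.9% in WT. Kpna4 held 32.2% and 32.9% in KO and 24.7% and 23.2% in WT, and Kpna6 held 11.5% and 10.2% in KO and 6.69% and 7.39% in WT. Kpna2 thus led the set in WT, while Kpna2 and Kpna4 stood close together in KO. Per kilobase the ratio of Kpna2 to Kpna6 was 2.66 and 3.11 in KO and 6.57 and 6.34 in WT. These shares do not depend on library scaling. They rest on the longest RefSeq-linked transcript of each gene and were not tested.

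Among 11 importin beta type receptors, Ipo5 was the one that fell, where 3.01% of all genes were called lower. Ipo5, a carrier of ribosomal proteins and histones, was at 172 and 140 CPM in KO and 321 and 256 CPM in WT (log2 fold change -0.88, SE 0.17, edgeR adjusted p = 0.0136). The lower WT library still exceeded both KO libraries. The gene lies on chromosome 14 of mm10, from 120911224 to 120947999 on the plus strand.

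Ipo11 and Ipo9 came next and missed the threshold. Ipo11 was at 105 and 85.6 CPM in KO and 167 and 129 CPM in WT (log2 fold change -0.63, SE 0.18, edgeR adjusted p = 0.0611). Ipo9, a histone carrier, was at 90.2 and 111 CPM in KO and 155 and 144 CPM in WT (log2 fold change -0.57, SE 0.17, edgeR adjusted p = 0.0606). Neither overlapped between genotypes, and DESeq2 called both lower.

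Kpnb1, importin beta itself, was the most abundant receptor per kilobase. It was at 528 and 451 CPM in KO and 698 and 589 CPM in WT (log2 fold change -0.39, SE 0.15, edgeR adjusted p = 0.127). The genotypes did not overlap, but the gap between them was smaller than the spread within each. Ipo4, Ipo7, Ipo8 and Ipo13 had log2 fold changes from -0.60 to -0.38 and did not pass, and the libraries of Ipo13 overlapped. Leaving out 1 library moved Ipo4 between -0.95 and -0.18 and Ipo13 between -0.78 and -0.11.

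The transportins formed the other end of the range. Tnpo1 was at 228 and 254 CPM in KO and 279 and 269 CPM in WT (log2 fold change -0.18, SE 0.14, edgeR adjusted p = 0.457). Its paralog Tnpo2, which like Tnpo1 carries RNA-binding proteins, was at 100.02 and 83.0 CPM in KO and 80.6 and 90.5 CPM in WT (log2 fold change 0.10, SE 0.17, edgeR adjusted p = 0.770). Tnpo3, the carrier of serine- and arginine-rich splicing factors, was at 109.3 and 109 CPM in KO and 115 and 109 CPM in WT (log2 fold change -0.04, SE 0.16, edgeR adjusted p = 0.912). Libraries of both genotypes overlapped for Tnpo2 and Tnpo3, and the sign of Tnpo3 turned with upper quartile factors.

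Of 7 exportins, Xpo1 and Cse1l fell, where 3.01% of all genes were called lower. Xpo1, the receptor of leucine-rich export signals, was at 118 and 137 CPM in KO and 214 and 220 CPM in WT (log2 fold change -0.77, SE 0.15, edgeR adjusted p = 0.0155). Cse1l, the exportin that returns importin alpha to the cytoplasm, was at 168 and 142 CPM in KO and 256 and 246 CPM in WT (log2 fold change -0.70, SE 0.15, edgeR adjusted p = 0.0229). For both genes the WT libraries lay close together and far above the KO libraries. Xpo1 is on chromosome 11 of mm10, from 23256041 to 23298249 on the plus strand, and Cse1l on chromosome 2, from 166906040 to 166946389 on the plus strand.

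The other exportins did not pass. Xpo7, a receptor with broad cargo, was at 221 and 206 CPM in KO and 208 and 224 CPM in WT (log2 fold change -0.02, SE 0.15, edgeR adjusted p = 0.962). Xpo4, which exports the translation factor eIF5A, had a log2 fold change of -0.01 (SE 0.23), and Xpo5, the carrier of microRNA precursors, one of -0.10 (SE 0.16). The libraries of these 3 genes overlapped, and the sign of Xpo7 and Xpo4 turned with upper quartile factors. Xpot, the tRNA exporter, was at 118 and 121 CPM in KO and 143 and 134 CPM in WT (log2 fold change -0.21, SE 0.15, edgeR adjusted p = 0.420). Xpo6, which exports actin, had a log2 fold change of -0.23 (SE 0.15), and neither Xpot nor Xpo6 overlapped between genotypes. Of the summed exportin CPM per kilobase, Xpo7 held 25.0% and 24.4% in KO and 18.8% and 20.1% in WT, while Cse1l held 23.3% and 20.7% in KO and 28.4% and 27.2% in WT.

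**Figure D2:**
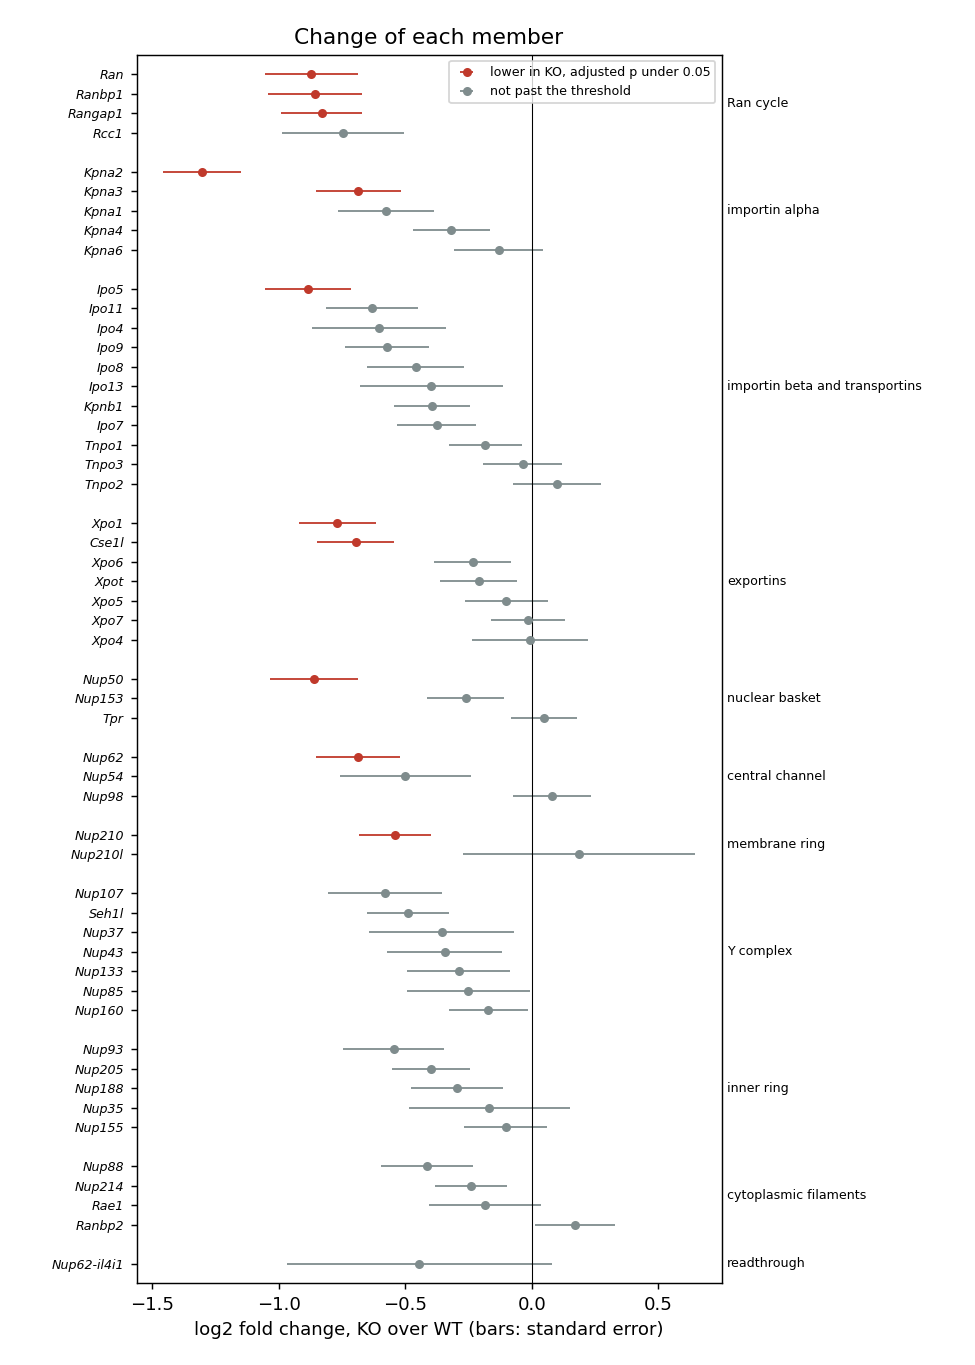
The log2 fold change of each member tested, KO over WT, with its standard error as a bar, grouped by role and ordered within each role. The 11 members past the threshold, in red, all lie left of 0, from -1.30 for Kpna2 to -0.54 for Nup210, and 5 others lie right of 0.

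Of 24 pore genes tested 3 fell in KO, each in a different substructure, where 3.01% of all genes were called lower. In the nuclear basket, Nup50, a cofactor that helps to release cargo from importin alpha, was at 106 and 84.9 CPM in KO and 190 and 156 CPM in WT (log2 fold change -0.86, SE 0.17, edgeR adjusted p = 0.0167). The genotypes were well apart. Nup153, the basket protein that anchors Nup50, was at 192 and 172 CPM in KO and 234 and 203 CPM in WT (log2 fold change -0.26, SE 0.15, edgeR adjusted p = 0.318). Tpr, the coiled-coil protein that forms the basket filaments, was at 850 and 882 CPM in KO and 856 and 821 CPM in WT (log2 fold change 0.05, SE 0.13, edgeR adjusted p = 0.863). The KO and WT libraries of Tpr overlapped, and per kilobase the ratio of Nup50 to Tpr was 0.194 and 0.1502 in KO and 0.346 and 0.297 in WT. Nup50 lies on chromosome 15 of mm10, from 84923411 to 84942963 on the plus strand.

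In the central channel, Nup62 was at 160 and 127 CPM in KO and 245 and 217 CPM in WT (log2 fold change -0.69, SE 0.16, edgeR adjusted p = 0.0318). Nup54, its partner in the FG trimer of the channel, was at 27.3 and 18.4 CPM in KO and 31.5 and 33.1 CPM in WT (log2 fold change -0.50, SE 0.26, edgeR adjusted p = 0.260). Neither overlapped between genotypes, but Nup62 no longer passed when any library but KO replicate 1 was left out (edgeR adjusted p between 0.0628 and 0.273). Nup98, an FG protein whose transcript also encodes the scaffold protein Nup96, was at 200.3 and 233 CPM in KO and 190 and 220 CPM in WT (log2 fold change 0.08, SE 0.16, edgeR adjusted p = 0.794). Its libraries overlapped.

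Nup62 lies on chromosome 7 of mm10, from 44816088 to 44830812 on the plus strand, and shares 97 exon bases with Il4i1 and 82 with Atf5 on the other strand. The readthrough transcript Nup62-il4i1, which RefSeq lists as Il4i1b, had 3.30 and 3.05 CPM in KO and 5.10 and 3.54 CPM in WT (log2 fold change -0.44, SE 0.52, edgeR adjusted p = 0.641). It was set apart from the pore genes. Nup62cl, a relative of Nup62 on the X chromosome, had 0 and 0 counts in KO and 2 and 0 counts in WT and was not tested.

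In the membrane ring, Nup210, which spans the nuclear envelope, was at 195 and 186 CPM in KO and 269 and 286 CPM in WT (log2 fold change -0.54, SE 0.14, edgeR adjusted p = 0.0454). Replicates agreed closely and the genotypes did not overlap, yet the call was lost with upper quartile factors (adjusted p = 0.0760), without either WT library and without KO replicate 2. Its paralog Nup210l, known from testis, had 5.47 and 4.83 CPM in KO and 3.99 and 5.07 CPM in WT, with overlap (log2 fold change 0.19, SE 0.46, edgeR adjusted p = 0.843).

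Among the members, none of the 7 Y complex genes, which form the outer scaffold rings, passed in edgeR, and 0 were called by DESeq2. At an unadjusted p under 0.05, 2 were lower, where 11.4% of all genes were lower. Nup107 passed with the replicate block and with no filter on low counts, and Seh1l with the replicate block. These settings called 9.29% (block) and 5.59% (no filter) of all genes lower, against 3.01% in the main fit. All 7 had a negative log2 fold change, from -0.58 for Nup107 to -0.17 for Nup160, with a median of -0.35. Sec13 and Ahctf1, which also belong to the complex but fall outside the symbol rule, had log2 fold changes of -0.13 and 0.00. Nup98, counted with the central channel, also encodes its subunit Nup96 and stood at 0.08. Seh1l was at 89.1 and 83.1 CPM in KO and 127 and 115 CPM in WT (log2 fold change -0.49, SE 0.16, edgeR adjusted p = 0.0899). Nup107, which names the complex, was at 62.9 and 42.6 CPM in KO and 89.8 and 68.0 CPM in WT (log2 fold change -0.58, SE 0.22, edgeR adjusted p = 0.136). Of the 7 members, Nup85 was the gene whose libraries overlapped, at 36.3 and 57.8 CPM in KO and 62.6 and 49.4 CPM in WT.

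None of the 5 inner ring genes passed in edgeR, and 0 were called by DESeq2. At an unadjusted p under 0.05, 2 were lower, against 11.4% of all genes. Nup93, the linker that ties the ring together, was at 34.3 and 38.1 CPM in KO and 56.4 and 49.3 CPM in WT (log2 fold change -0.55, SE 0.20, edgeR adjusted p = 0.120). Nup205 was at 92.9 and 95.4 CPM in KO and 123 and 125 CPM in WT (log2 fold change -0.40, SE 0.16, edgeR adjusted p = 0.140). Both were free of overlap, whereas Nup155, at 166 and 209 CPM in KO and 215 and 187 CPM in WT, and Nup35 overlapped.

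The 4 genes of the cytoplasmic face did not pass in edgeR either, and 0 were called by DESeq2. At an unadjusted p under 0.05, 1 was lower, against 11.4% of all genes. Nup88 was at 76.6 and 106 CPM in KO and 121 and 122 CPM in WT (log2 fold change -0.41, SE 0.18, edgeR adjusted p = 0.189). It passed with the replicate block (edgeR adjusted p = 0.0415), where 9.29% of all genes were called lower. Its partner Nup214 was at 181 and 180.4 CPM in KO and 213 and 214 CPM in WT (log2 fold change -0.24, SE 0.14, edgeR adjusted p = 0.325). Ranbp2, the filament protein that holds Rangap1 at the pore, was at 273 and 354 CPM in KO and 279 and 277 CPM in WT (log2 fold change 0.17, SE 0.16, edgeR adjusted p = 0.539). KO replicate 2 was high and KO replicate 1 lay just below WT. Per kilobase, the ratio of Rangap1 to Ranbp2 was 1.03 and 0.697 in KO and 1.68 and 1.70 in WT. Rae1, an mRNA export factor that binds Nup98, was at 41.4 and 39.2 CPM in KO and 53.6 and 38.0 CPM in WT, with overlap.

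**Figure D3:**
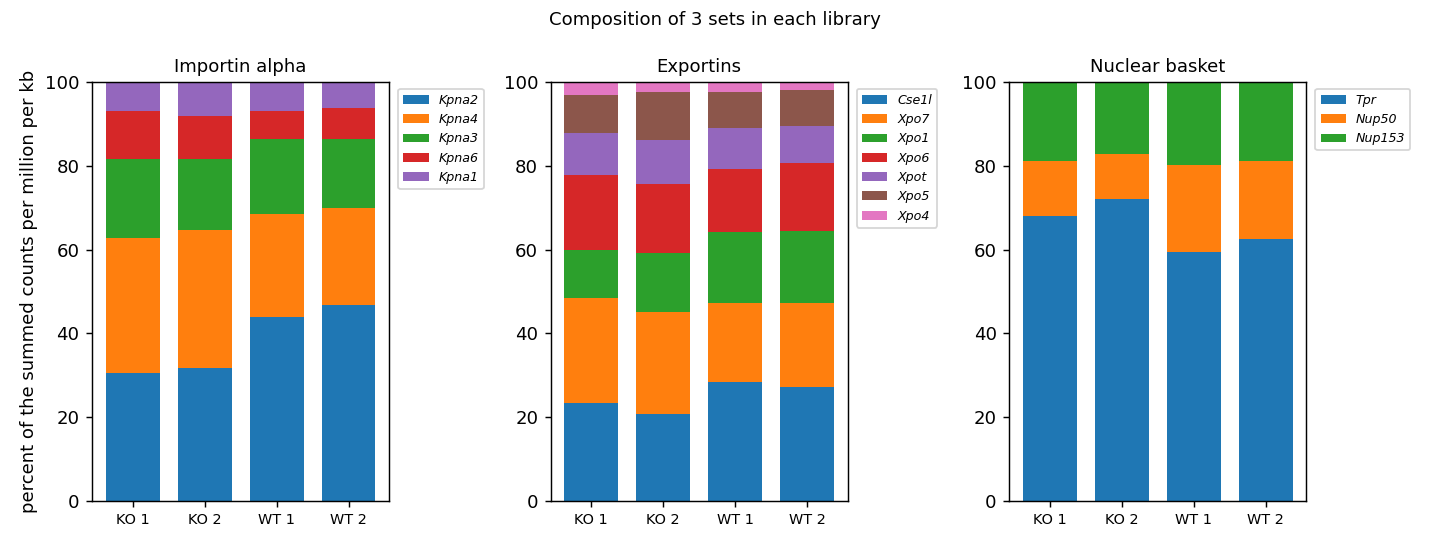
Share of each gene in the summed CPM per kilobase of the importin alpha, exportin and nuclear basket sets, in percent, with the 2 KO libraries left of the 2 WT libraries. Kpna2 holds 30.6% and 31.7% in KO and 44.0% and 46.9% in WT, and Nup50 13.2% and 10.8% in KO and 20.6% and 18.6% in WT.

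Pore and receptors were then set side by side. Receptors had 5 of 23 tested members lower in KO and pore genes 3 of 24, where 3.01% of all genes were called lower. Median log2 fold changes were -0.39 for receptors and -0.29 for pore genes. Both KO libraries lay below both WT libraries for 16 members of each class, as for 27.6% of all genes. The ranges overlapped, from -1.30 to 0.10 for receptors and from -0.86 to 0.19 for pore genes. The order of the medians turned without WT replicate 2, at -0.40 for receptors and -0.41 for pore genes, and without KO replicate 2, at -0.30 for receptors and -0.33 for pore genes. No test of the difference between the classes was made, and the counts and medians are a description. Summed receptor levels were 2910.2 and 2734 CPM in KO and 3923 and 3640 CPM in WT, and the KO mean was 74.6% of the WT mean. Summed pore levels were 3084 and 3225 CPM in KO and 3742 and 3526 CPM in WT, and the KO mean was 86.8% of the WT mean. The ratio of receptors to pore, which library scaling cannot change, was 0.944 and 0.848 in KO and 1.05 and 1.03 in WT. The ratio was lower in both KO libraries, and with 2 libraries against 2 no permutation over samples can pass the threshold. The sums are not per kilobase, so abundant genes with long transcripts weigh most. In the pore sum, Tpr held 850 and 882 CPM in KO and 856 and 821 CPM in WT. Ranbp2 held 273 and 354 CPM in KO and 279 and 277 CPM in WT. Neither was called, while 20 of the 24 pore genes had a negative log2 fold change. Summed by substructure, the KO mean was 93.0% of WT for the basket, with Tpr, and 94.9% for the cytoplasmic face, with Ranbp2. It was 78.7% for the Y complex, 83.6% for the inner ring, 81.7% for the central channel and 69.4% for the membrane ring. How far Tpr and Ranbp2 set the ratio was not tested.

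**Figure D4:**
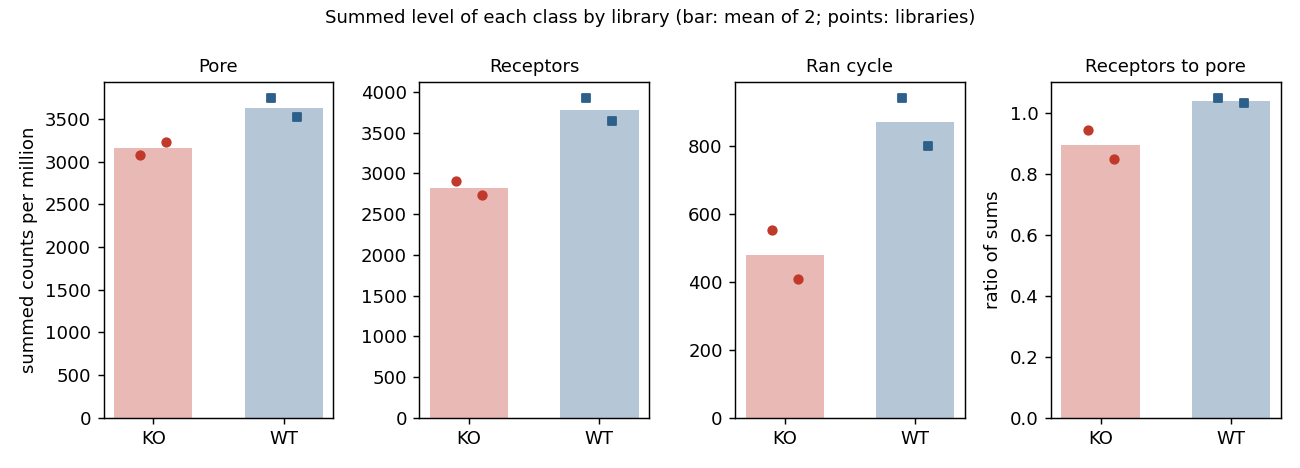
Summed CPM of 25 pore, 24 receptor and 4 Ran cycle genes, and the ratio of the receptor sum to the pore sum, for KO on the left and WT on the right; bars are means of 2 libraries and points are the libraries. No KO point reaches a WT point in any panel, and as a percentage of WT the KO mean is lowest for the Ran cycle, at 55.2%.

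Other genes of the pathway were taken from fixed lists. Among all genes tested 3.01% were called lower and 3.77% higher. Of 15 further pore and docking proteins tested, 2 fell and 0 rose. Ndc1, which anchors the pore in the membrane, was at 19.2 and 17.7 CPM in KO and 36.9 and 42.0 CPM in WT (log2 fold change -1.10, SE 0.23, edgeR adjusted p = 0.0199), and the checkpoint protein gene Mad2l1, whose product docks at the basket, had a log2 fold change of -0.76 (SE 0.17, edgeR adjusted p = 0.0262). Nupl1, now named Nup58 and the partner of Nup62 and Nup54, did not pass (log2 fold change -0.41), nor did Ahctf1, which seeds pores on chromatin (log2 fold change 0.00). Neither Ndc1 nor Mad2l1 passed without either WT library. Of 14 genes for Ran binding proteins and adaptors, Ranbp3l (log2 fold change 2.26) and Ranbp10 (0.68) rose and 0 fell (edgeR adjusted p = 0.0279 and 0.0478), and neither passed without either WT library. Ranbp3l was low in both genotypes, at 7.46 and 8.03 CPM in KO and 2.12 and 1.09 CPM in WT. Its WT values rest on 59 and 27 counts. Of 18 mRNA export genes 0 passed in edgeR, with 1 called by DESeq2. At an unadjusted p under 0.05 there were 5 of the 18, all of them lower, where 11.4% of all genes were lower. Nxf1, the main mRNA export receptor, had a log2 fold change of 0.02.

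Of 13 genes of the nuclear lamina and inner membrane, 3 fell and 1 rose, beside 3.01% and 3.77% of all genes. Lmnb1, which encodes lamin B1, was at 68.6 and 62.6 CPM in KO and 162 and 128 CPM in WT (log2 fold change -1.14, SE 0.18, edgeR adjusted p = 0.00438). The lamina-associated gene Tmpo (log2 fold change -0.76) and the chromatin-bridging factor gene Banf1 (-0.94) fell as well (edgeR adjusted p = 0.0114 and 0.0373). Syne1, which links the nucleus to the cytoskeleton, rose, at 98.7 and 157 CPM in KO and 43.4 and 44.5 CPM in WT (log2 fold change 1.54, SE 0.22, edgeR adjusted p = 0.00280). Without WT replicate 1 Syne1 was the member of this list that passed, and without WT replicate 2 Syne1 and Lmnb1 passed. Banf1 also failed without KO replicate 2 (edgeR adjusted p = 0.0621).

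Other gene groups moved with the genotype, where 3.01% of all genes were called lower and 3.77% higher. Of 33 cell cycle genes 24 were lower and 0 higher. Their median log2 fold change was -0.85, close to that of the Ran cycle, and a summed level of 4257 and 4089 CPM in KO and 7236 and 7165 CPM in WT. Of 21 Myc target and ribosome biogenesis genes 4 were lower, with a median of -0.45. Of 8 conventional dendritic cell markers 6 were higher, with sums of 1578 and 1459 CPM in KO and 552 and 592 CPM in WT, most of it in WT from Flt3, which is also among the LSK markers. Of 7 mast cell markers 5 were higher, with sums of 401 and 264 CPM in KO and 150 and 153 CPM in WT. Gata2, which was not called, made up most of the mast cell sum in WT, and the other 6 markers summed to 176 and 106 CPM in KO and 17.5 and 15.2 CPM in WT. Among markers of committed lineages, the B cell genes Cd79a and Ebf1 were lower and the myeloid gene Itgam was higher. Among 7 LSK markers Cd34 was lower (log2 fold change -0.61, edgeR adjusted p = 0.0408) and 6 did not pass. No marker named here was at 0 in a whole group. The part of cell cycle activity and of cell make-up in the changes of the transport genes was not tested.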

How the data were processed

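Raw read counts per gene symbol were deposited by the authors for 4 libraries. Per the labels' protocols, RNA of sorted LSK cells went into NuGEN Ovation Ultralow libraries read on an Illumina NextSeq. Per the submitters' processing notes, HTSeq 0.8.0, TopHat2 2.1.1, Picard 2.9.4 and SAMtools 1.5 were used on build mm10. The sources used here do not give the annotation, strand setting or duplicate handling, so antisense and overlapping reads cannot be told apart. KO was compared with WT with edgeR 4.0.16 in R 4.3.3 (TMM, filterByExpr with minimum count 10 and total 15, quasi-likelihood test, no covariate), with Benjamini-Hochberg adjustment over 14140 genes and a threshold of 0.05. The fit was tested on simulated data. Positions and transcript lengths came from GENCODE M21, which matched 53 of 54 members; Nup62-il4i1 has no length. Levels between genes are CPM per kilobase of the longest transcript with a RefSeq accession.

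Members, lists and tests were chosen with earlier results of these data known. Named in full are members past the threshold and, in each role, those with the smallest p, highest level and extreme fold changes, with paralogs. From other lists, genes with the smallest p were named. Nupl1, Ahctf1, Sec13, Nxf1 and marker genes were added after their values were seen. Alternatives were DESeq2 1.42.0, upper quartile factors, other filters, a replicate block, no Rn45s and leaving out each library. A committed-lineage marker is not reported here.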

Additional observations from a re-analysis of the deposited data

How the results depend on the processing

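The direction of the members' calls held throughout: 0 members were higher under any alternative. Without 1 library each, lower members numbered 1 to 15, pore members 0 to 4, receptor members 1 to 7 and Ran cycle members 0 to 4, with the lowest counts without WT replicate 1 and the highest without KO replicate 1. Over the same 4 settings, all genes lower ranged from 95 to 1161 and all genes higher from 160 to 997, cell cycle genes lower from 8 to 27, other pore and docking proteins lower from 0 to 3, Ran binding genes lower from 0 to 1 and higher from 0 to 2, mRNA export genes lower from 0 to 2, and lamina genes lower from 0 to 5 and higher from 1 to 2. The median log2 fold change ranged from -0.41 to -0.23 for pore and from -0.40 to -0.29 for receptor members, and the pore sum in KO from 83.4% to 89.2% of WT. With fewer libraries the lone library of a genotype is assumed to vary like the other group.

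The labels share replicate numbers, but with 2 pairs these do not show pairing; deviations of same-numbered libraries correlated at 0.08 over 14140 genes. With the replicate block, 19 members were lower (6 pore, 9 receptor), with 1314 of all genes lower and 1312 higher, 3 mRNA export genes lower, and 5 lamina genes lower and 2 higher. All 11 calls were among the 19. DESeq2 called 14 members lower, all 11 among them, with 792 of all genes lower, 878 higher and 1 mRNA export gene lower. No filter gave 8 receptor members and 1 mRNA export gene lower, with 987 of all genes lower and 1056 higher. Upper quartile factors moved the median of all genes to 0.10, gave medians of -0.21 for pore and -0.31 for receptor members and a pore sum in KO of 91.9% of WT, dropped Kpna3 and Nup210, and turned the sign of Tnpo3 (0.0449), Xpo4 (0.0760) and Xpo7 (0.0658). The stricter filter turned Xpo4 (0.00681).

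Leaving out 1 library turned the sign of 10 members, none of them called, whose log2 fold changes then ranged from -0.290 to 0.0461 for Nup155, -0.634 to 0.0394 for Nup85, -0.0403 to 0.176 for Nup98, -0.427 to 0.0794 for Rae1, -0.0345 to 0.338 for Ranbp2, -0.0497 to 0.218 for Tnpo2, -0.0946 to 0.00173 for Tnpo3, -0.262 to 0.196 for Xpo4, -0.235 to 0.00561 for Xpo5 and -0.0757 to 0.0266 for Xpo7. The cause of these shifts was not tested. Nup62cl and Kpna7 lay under the floor of 3 counts and were not tested. At such counts, absence and a level too low to detect cannot be told apart.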
